A study of Triticum aestivum with 15 samples.

Results

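The response of bread wheat leaves to a barley-type cytoplasm was set against the response to Aegilops cytoplasms, gene by gene. An alloplasmic line carries the nucleus of one species with the plastids and mitochondria of another, and a euplasmic line carries its own. TH237 holds the nucleus of the wheat accession T20 in the cytoplasm of the wild barley Hordeum chilense, accession H7. T183 and T195 hold the nucleus of the wheat cultivar Chris in the cytoplasm of Aegilops uniaristata (plasmon N) and of Aegilops squarrosa, also called Aegilops tauschii (plasmon D). T20 and Chris were the euplasmic controls. Each of the 5 lines was read on 3 Affymetrix Wheat Genome Arrays, from the second fully expanded leaf of seedlings 14 days old, grown in garden soil under high light and bulked by pot. The change from T20 to TH237 is called the barley-type effect, and the mean of the changes from Chris to T183 and from Chris to T195 the Aegilops effect. The interaction is the barley-type effect minus the Aegilops effect. All are differences of mean log2(signal + 16), so they are on a log2 scale and understate the change of dim signals. Values after ± are standard errors of the fit, and a number in brackets after them is the adjusted p. An interaction above 0 means that a signal went up more, or down less, in TH237 than in the Aegilops lines.

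Members were all probe sets, the groups of short probes that read 1 transcript each, whose signal passed the 55th percentile of its array on at least 3 of the 15 arrays. These were 31555 of 61179 once control probe sets were left out. The H. chilense cytoplasm was present only in the T20 nucleus and the Aegilops cytoplasms only in that of Chris, so cytoplasm type and nuclear background cannot be told apart in the interaction. TH237 had been backcrossed fewer times than T183 and T195. The interaction also holds the difference between the controls, so an error in T20 or Chris enters it directly. In bulk leaf RNA, fewer cells of a type and less RNA per cell cannot be told apart. The array was designed on wheat sequence, and the match of its probes to plastid and mitochondrial transcripts of H. chilense or Aegilops was not measured, so an organelle probe set can differ by sequence as well as by amount.

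Plastids and mitochondria keep a small genome of their own, but most of their proteins are encoded in the nucleus, made in the cytosol and imported. Photosystems, the plastid ATP synthase and cytochrome c oxidase are built from subunits of both origins. Organelles report their state to the nucleus through retrograde signals, which in leaves act on genes of light harvesting, chlorophyll synthesis, redox control and cell death. A foreign cytoplasm can therefore change organelle transcripts directly and nuclear transcripts through such signals.

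Primer pairs of 3 genes described below are printed because they show which stretch of each transcript was amplified for quantitative PCR. They are those of psbM, FAR and LSD 1, which responded to the barley-type cytoplasm only. They are written 5′ to 3′ in lower case, forward before reverse, with no base set in capitals.
psbM forward: gattaagaaagctcgtgggttagaga
psbM reverse: ccacactaagaccaaaatgggtttt
FAR forward: gtagaccccaataccataatggacg
FAR reverse: ccaccatcatagtgtttaccacca
LSD 1 forward: cagtttcgtcacgtcagttggg
LSD 1 reverse: gcttcccaaataaagttgcagga

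Arrays of a line were alike, with a mean pairwise correlation of log2 signals of 0.964 to 0.966, and no pair held identical values. Antenna genes of the leaf were read clearly in T20 and TH237, where 10 of 11 probe sets of the light-harvesting complex LHCII lay above the 55th percentile on each array, and less so in the Chris background, where 4 of 11 did. Chris array 3 stood apart in these genes. It was the highest Chris array at 10 of the 11, with a median of 3.57 times the mean of the other Chris arrays and up to 120 times, and at 5 of 5 probe sets of the ascorbate peroxidase APX4, with 7.48 to 18.3 times. Anther genes were not at background throughout, since ms2 lay between percentiles 2.45 and 65.1 of the signals and plantacyanin between percentiles 58.3 and 86.2. T20 differed from Chris at 2310 probe sets (7.32%), and at 174 of those called for the interaction (21.2%). A probe set was called where limma gave an adjusted p of at most 0.05 and the difference was at least 2-fold.

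The interaction was called at 821 of the 31555 probe sets (2.6%). It was above 0 at 565 (1.79%) and below 0 at 256 (0.811%), with a median of 0.01 over all probe sets. The barley-type effect was called at 719 (2.28%), 427 higher (1.35%) and 292 lower (0.925%), and the Aegilops effect at 57 (0.181%), 10 higher (0.0317%) and 47 lower (0.149%). The median standard error was 0.302 for the interaction, 0.228 for the barley-type effect and 0.197 for the Aegilops effect. Over all probe sets the effects correlated at -0.0767, and they share no array. The interaction count moved by more than 1.5 times without T20 array 1 (386), TH237 array 1 (533) or 2 (421), or Chris array 2 (522) or 3 (459). The barley-type count did so without T20 array 1 (437) or TH237 array 2 (477), and the Aegilops count without Chris array 1 (105), 2 (31) or 3 (29).

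**Figure D1:**
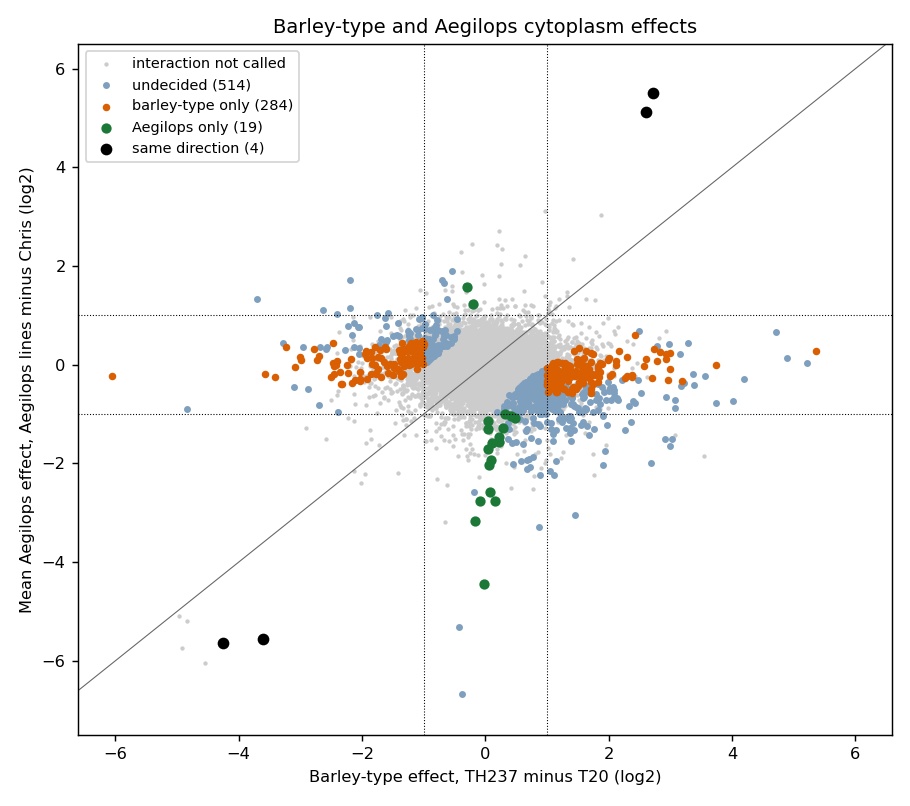
Barley-type effect (x axis, TH237 minus T20, log2) against Aegilops effect (y axis, mean of T183 and T195 minus Chris, log2) for each of 31555 probe sets, with 2-fold limits dotted and equal effects on the diagonal line. The 284 barley-type only members lie along the horizontal axis, the 19 Aegilops only members along the vertical one, and the 4 same-direction members lie off the diagonal.

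Most of the called members that could be placed responded to the barley-type cytoplasm only. A member was placed there where the barley-type effect was called and the 95% interval of the Aegilops effect lay within 2-fold either way. There were 284 (34.6% of those called), of which 171 went up and 113 went down in TH237, with a median size of the interaction of 1.59. Aegilops only, by the mirror rule, held 19 members (2.31%). In 4 members both effects were called in the same direction with unequal size. No member was called in opposite directions in both effects. The other 514 (62.6%) could not be placed, 154 with a called barley-type effect beside an Aegilops interval that passed 2-fold, 16 with a called Aegilops effect, and 344 with neither effect called. All 284 barley-type only members had TH237 arrays apart from T20 arrays, against 24.8% of all probe sets, and 18 of the 19 Aegilops only members had T183 and T195 arrays apart from Chris arrays, against 4.45%. Those calls used the same arrays, so the array counts describe them and are no second test. Without Chris array 3, 2 or T20 array 1 the barley-type only count was 155, 164 and 162, and without TH237 array 2 it was 166.

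Among plastid genes that responded to the barley-type cytoplasm only, CF0 subunit I of the ATP synthase rose and psbM fell. CF0 is the membrane part of the enzyme, through which protons flow, and subunit I belongs to its stalk. The CF0 signal was 528, 1084 and 639 on the T20 arrays and 27690, 26400 and 36780 on those of TH237. In Chris it was 836, 773 and 595, in T183 801, 969 and 615 and in T195 765, 1182 and 1092. Each TH237 array stood far above the other 12, which overlapped one another. The interaction was 5.08 ± 0.36 (adjusted p 2.92e-05), from a barley-type effect of 5.36 and an Aegilops effect of 0.27, and it was called under each of the 32 alternative settings. The other kept probe sets of its sequence cluster did not follow it, at 0.54, 0.43 and -1.32.

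The gene psbM encodes a small subunit of photosystem II, and its primers are given above. Its signal was 8998, 17180 and 13090 on the T20 arrays and 148, 146 and 242 on those of TH237, against 10250, 9631 and 8625 on the Chris arrays, 6940, 14560 and 10180 for T183 and 4698, 9303 and 6420 for T195. The drop was seen in TH237 alone, with the lines of the Chris background overlapping. The interaction was -5.84 ± 0.42 (adjusted p 2.92e-05) and was called under each alternative. The other probe set of the psbM cluster gave -0.81 and was not called. A probe set of the photosystem II reaction centre protein D1 gave 1.83 ± 0.46 (0.0486), near the threshold, with 5562, 14540 and 8944 on the T20 arrays and 26850, 31700 and 40450 on those of TH237. Its call was lost without any 1 of T20 arrays 1 and 3, TH237 arrays 1, 2 and 3, Chris arrays 1 and 2, T183 arrays 1, 2 and 3 or T195 arrays 1, 2 and 3 (1.49 to 1.97, adjusted p 0.0553 to 0.122), and the other 4 probe sets of the D1 cluster lay between 0.11 and 1.38 without a call.

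Transcripts of cytochrome c oxidase, the last complex of the respiratory chain, rose in TH237 at all 4 probe sets listed for it. Subunit III read 267, 291 and 321 on the T20 arrays and 1862, 1971 and 2319 on those of TH237, and 601, 549 and 548 on the Chris arrays, 737, 852 and 1137 for T183 and 476, 597 and 634.6 for T195. TH237 lay above every other array. Each T183 array lay above Chris (means 908.5 and 566), while T195 overlapped Chris (mean 569). The Aegilops effect, averaged over these unlike lines, was 0.32 ± 0.15 and was not called. The interaction of this probe set was 2.42 ± 0.23 (adjusted p 0.000261), and that of the other subunit III probe set 1.83 ± 0.26 (0.00417). Subunit I gave 1.47 ± 0.27 (0.0135). These 3 were barley-type only. By mean signal the other subunit III probe set was also higher in T183 (1109) than in Chris (501) and T195 (532). It read 223 in T20 and 1273 in TH237, and its interaction lay between 1.31 and 2.36 across the alternative settings. The fourth, a gene described as related to cytochrome c oxidase and similar to a rice gene, was dim, that is below the 55th percentile on all 3 arrays of a line, in T20 (53.5, 46.9 and 59.2) and in the Chris background. It read 1278, 2299 and 1936 on the TH237 arrays, at least 16.9-fold higher than T20, where the bound sets the dim line at that percentile. Leaving out any 1 array changed no call among the 4.

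Nuclear genes with the largest barley-type only rises covered metabolism, transport and gene regulation. The largest annotated one was a ribonuclease T2, an enzyme that degrades RNA, which rose from 51.0, 3.45 and 121 on the T20 arrays to 839.5, 1151 and 407 on those of TH237 and was dim in all lines of the Chris background, at 2.06 to 9.43. The interaction was 3.74 ± 0.70 (adjusted p 0.0147). The bifunctional AK-HSDH I, aspartate kinase and homoserine dehydrogenase at the start of threonine and methionine synthesis, read 525, 574 and 473 on the T20 arrays and 4666, 6694 and 3787 on those of TH237, against 323, 469 and 345 on the Chris arrays, 371, 255 and 191 for T183 and 313, 289 and 383 for T195. TH237 stood above all other arrays, and the interaction of AK-HSDH I, 3.53 ± 0.33 (0.000252), was called under each alternative.

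Phosphoenolpyruvate carboxylase isoform 1, which fixes bicarbonate into oxaloacetate, rose from 334, 305 and 429 to 1097, 1308 and 1183. Its interaction was 2.20 ± 0.29 (0.00322), and the other 3 probe sets of its cluster were called in the same direction. The hemoglobin AHB1, which scavenges nitric oxide under low oxygen in Arabidopsis, rose from 169, 142 and 106 to 525, 756 and 588, with 2.24 ± 0.50 (0.0307). That call was lost without any 1 of T20 arrays 1, 2 and 3, TH237 arrays 1, 2 and 3 or Chris arrays 2 and 3 (1.91 to 2.38, adjusted p 0.0528 to 0.0824). The other probe set of the AHB1 cluster gave 1.16 and was not called (adjusted p 0.629). A POT family transporter, which carries small peptides or nitrate, rose from 211, 193 and 177 to 1702, 1619 and 1636, above Chris at 1214, 925 and 606 and above every T183 and T195 array. Its interaction was 2.76 ± 0.38 (0.00364).

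Some of these rises started from a control below the percentile. The coactivator KIWI, which binds single-stranded DNA, was dim in T20 (35.8, 6.80 and 7.30) and rose to 179, 132 and 201, far below the 1990, 1536 and 1191 of Chris. The interaction of KIWI was 2.50 ± 0.42 (0.00806), with TH237 at least 1.59-fold higher than T20 and the control difference at -5.69. A putative DNA cytosine methyltransferase similar to MET2 gave 2.58 ± 0.50 (0.0175) from a dim T20 and was at least 2.81-fold higher in TH237, a call lost without TH237 array 2 (2.49, adjusted p 0.0509). A molybdenum cofactor sulfurase, which activates enzymes such as aldehyde oxidase, gave 2.59 ± 0.42 (0.00677) and was at least 2.56-fold higher. A kelch repeat protein of unknown role gave 2.54 ± 0.41 (0.00645), while the other probe set of its cluster gave 0.68 and was not called (adjusted p 0.361). In 50 of the 284 barley-type only members T20 or TH237 was dim on all 3 arrays, and in 23 all lines of the Chris background were, so that those lines could not have shown a fall.

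Barley-type only falls were found in genes of surface lipids, cell death, sugar transport and water transport. CYP86B1, of the P450 enzymes that add a hydroxyl group to long fatty acids for surface polymers, read 163, 173 and 148 on the T20 arrays and 5.85, 6.90 and 5.995 on those of TH237, and 215, 188 and 135 on the Chris arrays, 228, 259 and 152 for T183 and 253, 137 and 149 for T195. TH237 alone was low and was dim on each array, at least 1.42-fold below T20. The interaction was -3.10 ± 0.31 (adjusted p 0.0004). The acyl-CoA reductase FAR, which makes fatty alcohols for wax and pollen wall, fell from 892, 883 and 908 to 148, 103 and 46.8. Its Aegilops effect was -0.05, and its interaction -3.04 ± 0.55 (0.0112). The other probe set of the FAR cluster was dim in TH237, at least 3.71-fold lower, and gave -2.43 ± 0.51 (0.023), lost without any 1 of T20 array 2 or Chris arrays 2 and 3 (-2.33 to -2.28, adjusted p 0.0564 to 0.0617).

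The probe set annotated as AGD2 and as an aldo-keto reductase fell in TH237. It read 1001, 946 and 856 on the T20 arrays and 159, 148 and 161 on those of TH237, and 3074, 1902 and 1888 on the Chris arrays, 3604, 3782 and 3188 for T183 and 2378, 2961 and 2475 for T195. The groups of the T20 background did not overlap. T195 overlapped Chris, while each T183 array lay above Chris and T195 without a call (T183 against Chris 0.65 ± 0.18, adjusted p 0.353). The interaction was -2.90 ± 0.24 (adjusted p 8.59e-05).

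Metacaspases are cysteine proteases that act in plant cell death. The first probe set fell from 23280, 23300 and 27890 to 6445, 5318 and 8167, with an interaction of -2.06 ± 0.31 (adjusted p 0.00513). The second gave -2.26 ± 0.46 (0.0209) and lost its call without any 1 of T20 array 1, TH237 array 2 or Chris array 3 (-2.26 to -1.94, adjusted p 0.0509 to 0.0586). STP13, a hexose carrier of the plasma membrane, fell from 934, 461 and 840.0 to 206, 205 and 178 and gave -2.14 ± 0.36 (0.0086). The other probe set of the STP13 cluster gave -0.64 and was not called (adjusted p 0.517). VEP1, needed for vein patterning in Arabidopsis, gave -2.18 ± 0.34 (0.00627). NIP1;2, a water channel of the NOD26-like family, fell from 819, 1167 and 1200 to 272, 124 and 209 and gave -2.20 ± 0.32 (0.0049), while the other 2 probe sets of its cluster gave 0.31 and -0.07 without a call. The remaining named falls were a proline-rich protein (-2.88 ± 0.56, 0.017), a serine/threonine kinase (-2.49 ± 0.41, 0.00726, at least 2.62-fold lower in TH237) and a lipid transfer protein (-2.26 ± 0.36, 0.00631, at least 4.30-fold lower). The other probe set of the kinase cluster gave -0.78 and was not called (adjusted p 0.325). By mean signal the lipid transfer protein was lower in T195 (309) and higher in T183 (864) than in Chris (641), so its Aegilops effect averages unlike lines. Its interaction lay between -2.99 and -1.52 across the alternative settings.

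**Figure D2:**
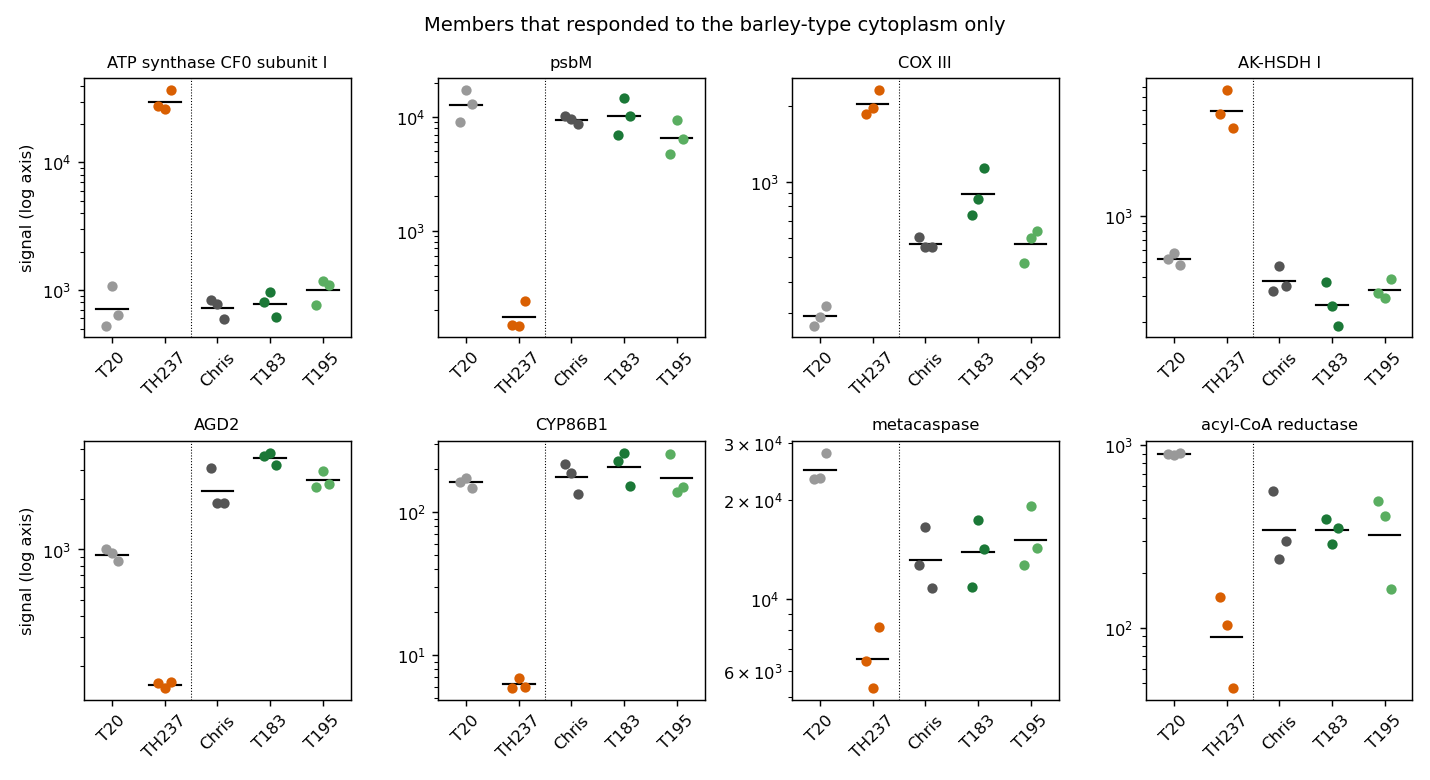
Signal (log axis, deposited intensity) of 8 barley-type only members in each of the 15 arrays, one dot per array, with a black line at the geometric mean of the line and a dotted line between the T20 and Chris backgrounds. In each panel the 3 TH237 arrays lie apart from the 3 T20 arrays, while T183 and T195 lie at or near the level of Chris.

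No member was called in opposite directions by limma in both effects, although 42 had unadjusted p under 0.05 and at least 2-fold in each direction. The limma count was 6 with 64 added in place of 16, 5 with signals floored at the percentile, 6 with a 70th percentile filter, 9 with an intensity trend, 5 with T195 alone as the Aegilops term, 3 with a replicate block and 0 to 4 with 1 array left out. At an adjusted p of at most 0.05 with no 2-fold limit on the single effects there were 2, both without an annotation, one (0.89 in TH237 and -1.25 in the Aegilops lines, interaction 2.13 ± 0.30) and the other (0.73 and -0.94, 1.68 ± 0.25). A description by arrays was added after the data were seen, in which both effects were at least 2-fold and the arrays of control and alloplasmic lines overlapped in neither. It held 30 members (0.0951% of all probe sets), 28 higher in TH237 and lower in T183 and T195, and 2 the other way. The interaction was called at all 30, but on the arrays and values that picked them, so that count is no second test. With other offsets, median centring or quantile normalization it held 20 to 38, and with 1 array left out from 24 (without Chris array 3) to 68 (without Chris array 1). The genes described next belong to these 30 unless stated, and those outside the lists were chosen after their values were seen.

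An LHCII probe set read 2760, 6312 and 6389 on the T20 arrays and 19470, 26250 and 24660 on those of TH237. In Chris it read 550.0, 405 and 1237, in T183 158, 244 and 296 and in T195 322, 264 and 245. TH237 lay above T20, and T183 and T195 lay below Chris, with no overlap on either side. The barley-type effect of 2.27 ± 0.39 was called and the Aegilops effect of -1.33 ± 0.34 was not (adjusted p 0.179), and the interaction was 3.60 ± 0.52 (0.00458). LHCII proteins form the antenna that passes light energy to photosystem II, and their many near-identical genes can share probes, so no single gene is meant. Of 11 LHCII probe sets, 7 were called above 0 and none below, with a median interaction of 3.6, a median barley-type effect of 2.68 and a median Aegilops effect of -1.33. All 11 had a barley-type value above 0 and an Aegilops value below 0. Without Chris array 3, the array that stood apart in these genes, 9 were called, the median interaction was 3.11 and the median Aegilops effect was -0.32. In that fit 9 of the 11 Aegilops values lay below 0. Without T20 array 1, 4 were called. The Aegilops effect was called at 0 of the 11, and the rise in TH237 was called at 4 of the 11 with all arrays and at 9 without Chris array 3. That rise uses no Chris array and kept its median of 2.68. Its 2 counts differ through the spread that all lines share in the fit and the adjustment of p.

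The largest called LHCII interaction, 4.67 ± 1.01 (adjusted p 0.0264), was at a probe set that is not among the 30. Chris array 3 read 925 there against 84.6 and 54.1 on the other Chris arrays, while TH237 read 6184, 7553 and 6711 and T20 511, 962 and 2295. T183 and T195 were dim, and the call was lost without any 1 of T20 arrays 1 and 2 or TH237 arrays 1, 2 and 3 (4.17 to 4.74, adjusted p 0.0516 to 0.0754). Another antenna probe set, where Chris array 3 was closer to the others, gave 3.79 ± 0.62 (0.00704) and kept its call with any 1 array left out.

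APX4 is annotated as an ascorbate peroxidase, of the enzymes that remove hydrogen peroxide. The probe set with the called interaction read 2310, 3447 and 4464 on the T20 arrays and 12680, 13540 and 10910 on those of TH237, and 156, 174 and 2478 on the Chris arrays, 87.6, 71.5 and 123 for T183 and 56.3, 116 and 98.6 for T195. The groups did not overlap, but 1 Chris array held most of the distance to the Aegilops lines. Neither single effect was called, at 1.90 ± 0.74 and -2.04 ± 0.64. The interaction of 3.94 ± 0.98 (0.0474) lost its call without any 1 of T20 arrays 1, 2 and 3, TH237 arrays 1, 2 and 3, T183 arrays 1, 2 and 3 or T195 arrays 1, 2 and 3 (3.69 to 4.16, adjusted p 0.0612 to 0.124). Of 5 APX4 probe sets it was the only one called, with values of 2.45 to 3.99 among the 5, and without Chris array 3 the count was 2 and the median 1.84 in place of 2.99.

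The chloroplast-specific ribosomal protein annotated as S30A, a nuclear-encoded part of the small plastid ribosome, read 466, 525 and 1369 on the T20 arrays and 6010, 6043 and 4982 on those of TH237. In Chris it read 86.9, 222 and 162, while T183 (4.98, 44.1 and 29.7) and T195 (53.5, 39.2 and 73.7) were dim. TH237 stood at the top and the Aegilops lines at the bottom of their own comparison, at least 1.44-fold and 1.52-fold below Chris. The interaction was 4.64 ± 0.59 (adjusted p 0.0022), and the Aegilops effect alone, -1.65 ± 0.38, was not called (0.133).

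LSD1 and its relative LOL1 are zinc finger proteins that set the threshold of cell death in Arabidopsis. The first LSD1-like probe set read 530.2, 697 and 914 on the T20 arrays and 2569, 2854 and 2529 on those of TH237. It read 443, 736 and 739 on the Chris arrays, 216, 260.3 and 357 for T183 and 418, 198 and 395 for T195. Neither side overlapped, and the control levels were close (control difference 0.16). The interaction was 2.94 ± 0.39 (adjusted p 0.00322), and 3.06 ± 0.55 (0.0114) at another probe set of the same cluster, while the remaining 2 gave 0.91 and 1.27 (0.225 and 0.14) and were not called. In both called ones, the barley-type effect was called and the Aegilops effect was not. The LSD 1 probe set of the primers above was barley-type only, with 99.7, 140.2 and 214 on the T20 arrays, 531, 686 and 474 on those of TH237 and 81.7, 108 and 133 on the Chris arrays, and gave 2.18 ± 0.36 (0.00791). All 3 kept their calls with any 1 array left out.

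Other members of the 30 moved alike. MEE14, named for arrest of the embryo in Arabidopsis mutants, gave 3.20 ± 0.40 (adjusted p 0.00217), with 451, 790.4 and 1459 on the T20 arrays and 3885, 2729 and 3076 on those of TH237, and 1052, 1252 and 1294 on the Chris arrays, 594, 614 and 641 for T183 and 395, 364 and 461 for T195. A glyoxalase I, which detoxifies methylglyoxal, read 421, 565 and 698 on the T20 arrays, 1588, 1692 and 1128 on those of TH237, 346, 305 and 863 on the Chris arrays, 158, 115 and 282 for T183 and 198, 198 and 142 for T195, with 2.66 ± 0.50 (0.0135). A splicing factor with a PWI domain gave 2.28 ± 0.34 (0.00504), and the other 2 probe sets of its cluster are among the 30 too, at 2.24 and 2.42. The actin-binding formin FH14 gave 2.66 ± 0.47 (0.0106), and a RING finger protein, of a class often found in ubiquitin ligases, 2.76 ± 0.44 (0.00644). A lipid transfer protein gave 2.60, a PB1 domain protein 2.46 and an alpha/beta hydrolase 2.46. In all of these TH237 was higher than T20 and T183 and T195 were lower than Chris on every array. Such a separation was required by the rule that picked the 30. The Aegilops effect was called at none of these genes. At the glyoxalase I, FH14 and the alpha/beta hydrolase the barley-type effect was not called either.

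The reverse order, lower in TH237 and higher in the Aegilops lines, was led by a probe set matched to the mitochondrial 18S ribosomal repeat of rye. It read 678, 393 and 608 on the T20 arrays and 44.6, 7.69 and 39.2 on those of TH237, and 858, 647 and 826 on the Chris arrays, 1964, 2825 and 2090 for T183 and 1034, 2303 and 2101 for T195. TH237 was dim, at least 4.81-fold below T20, while every T183 and T195 array lay above Chris. The interaction was -5.04 ± 0.49 (adjusted p 0.000293), the barley-type effect -3.71 and the Aegilops effect 1.33, the last not called (0.145). The wheat counterpart of this repeat, outside the 30, gave -2.93 ± 0.45 (0.00576), with a dim TH237 at least 2.004-fold lower and an Aegilops effect of 0.36. The second member with this order is described only as a rice clone and gave -2.75 ± 0.49 (0.0111).

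Of 3 further genes outside the 30, chosen after their values were seen, a Myb-related protein read 283, 188 and 168 on the T20 arrays and 94.3, 57.8 and 129 on those of TH237, and 977, 662 and 545 on the Chris arrays, 2409, 1424 and 1110 for T183 and 1066, 1005 and 1479 for T195. Its groups did not overlap on either side, and its interaction was -2.00 ± 0.43 (adjusted p 0.0272), lost without any 1 of T20 arrays 1 and 2, TH237 arrays 1 and 2 or Chris arrays 2 and 3 (-2.07 to -1.74, adjusted p 0.0502 to 0.0784). The defence gene wir1 gave -1.86 ± 0.36 (0.0163), with 3620, 3683 and 4341 on the Chris arrays against 10770, 5428 and 5703 for T183 and 9591, 8516 and 8434 for T195. A small heat shock protein gave 3.10 ± 0.78 (0.0492), and there Chris array 3, at 2375 against 556 and 249, again stood apart. Its call was lost without any 1 of T20 arrays 1 and 2, TH237 arrays 1, 2 and 3, Chris arrays 1 and 3, T183 arrays 1, 2 and 3 or T195 arrays 1, 2 and 3 (2.23 to 3.39, adjusted p 0.0512 to 0.127).

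Among the 344 called members in which neither effect passed by itself, the values of the effects had opposite signs in each. The barley-type value was above 0 and the Aegilops value below 0 in 247, and the reverse in 97. The median size was 0.823 for the barley-type effect and 0.569 for the Aegilops effect, and the former was the larger in 246. Where neither part passes, a difference passes most readily if the parts point apart. These signs thus follow largely from the rule and are no separate evidence.

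**Figure D3:**
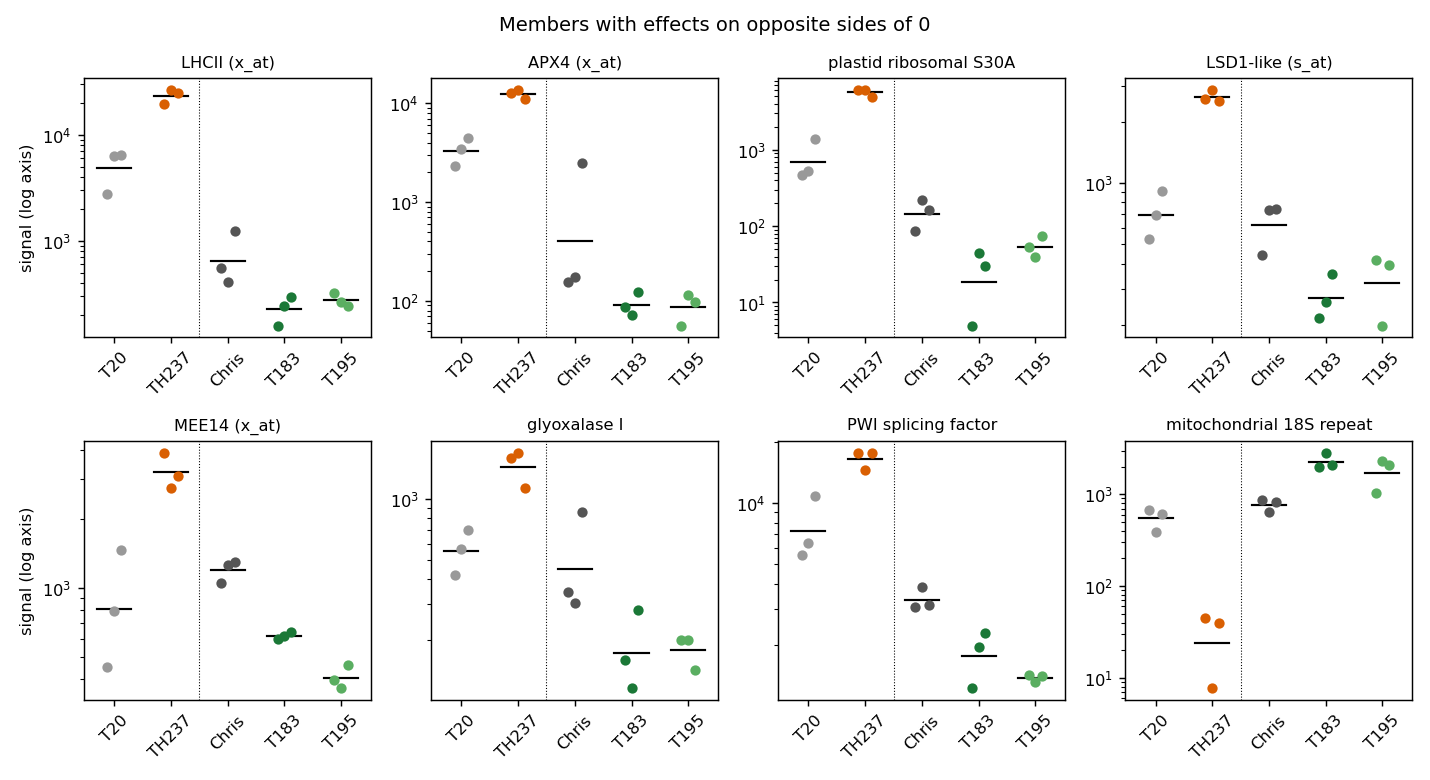
Signal (log axis, deposited intensity) of 8 members whose effects lie on opposite sides of 0, one dot per array, black line at the geometric mean, dotted line between the nuclear backgrounds. In the first 7 panels TH237 lies above T20 and T183 and T195 lie below Chris, and the mitochondrial 18S repeat shows the reverse. 1 Chris array lies far above the other 2 for APX4.

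Aegilops only members were few, and 17 of the 19 fell by the mean of T183 and T195. The largest interaction, 4.41 ± 0.51 (adjusted p 0.00118), was at a probe set known only as similar to a rice clone. It read 936, 1002 and 821 on the T20 arrays, 848, 912 and 939 on those of TH237 and 388, 824 and 893 on the Chris arrays, and 7.73, 38.5 and 6.75 for T183 and 8.36, 8.77 and 35.9 for T195. T183 and T195 were both dim, at least 6.498-fold and 6.86-fold below Chris, and the other 3 lines overlapped. Another unannotated probe set had tight arrays, with 6822, 6099 and 6706 on the T20 arrays, 6905, 6592 and 7277 on those of TH237, 2863, 2983 and 3061 on the Chris arrays, 430.4, 562 and 583 for T183 and 431, 513 and 412 for T195. T183 and T195 were alike and below everything else, and the interaction of 2.66 ± 0.19 (2.92e-05) was called under each alternative.

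The members of this class with a known name were 2. A transferase family protein read 3163, 4421 and 3621 on the Chris arrays, 1043, 1658 and 2313 for T183 and 1874, 1360 and 1203 for T195, with 1.56 ± 0.35 (adjusted p 0.0306), and lost its call without any 1 of T20 arrays 1 and 2, TH237 arrays 1, 2 and 3 or Chris arrays 2 and 3 (1.41 to 1.61, adjusted p 0.0513 to 0.079). A protein associated with VAMP, the vesicle membrane protein of secretion, read 266, 244 and 188 on the Chris arrays, 15.9, 40.2 and 46.9 for T183 and 143, 108 and 124 for T195. It was dim in T20 and TH237, so the barley-type cytoplasm could not have shown a fall there. Its interaction was 1.69 ± 0.36 (0.0243), lost without any 1 of T20 arrays 1 and 2 or Chris array 2 (1.65 to 1.68, adjusted p 0.0542 to 0.0619). Another member that fell was dim there too. One of the 2 members that rose, which has no gene name, read 221, 85.3 and 97.6 on the Chris arrays, 379, 329 and 409 for T183 and 438, 397 and 447 for T195, with -1.86 ± 0.35 (0.0147), and was dim in T20 and TH237. The other, also without a gene name, rose in T183 (2.26 against Chris, adjusted p 0.000119). In T195 its rise was not called (0.21, 0.782), so its class describes T183 and not both lines. Its interaction was -1.44 ± 0.27 (0.0149). The count of 19 lay between 9 (without Chris array 2) and 37 (without Chris array 1) with 1 array left out.

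Larger falls in the Aegilops lines stood among the 16 members whose barley-type interval passed 2-fold, and were chosen after their values were seen. Another PWI splicing factor had the largest interaction of all, 6.28 ± 0.67 (adjusted p 0.000603). It read 4589, 3809 and 3131 on the Chris arrays, 39.2, 12.5 and 10.7 for T183 and 9.23, 69.2 and 14.3 for T195, at least 37.5-fold and 39.5-fold lower, beside 75.0, 73.8 and 114 on the T20 arrays and 51.3, 149.8 and 26.5 on those of TH237. The T20 background was thus already low, with a control difference of -5.22. A SCARECROW-like protein, of a family that patterns roots and leaves, read 2330, 2646 and 2763 on the T20 arrays, 2496, 1793 and 1577 on those of TH237, 1352, 3050 and 2428 on the Chris arrays, 50.4, 55.6 and 76.3 for T183 and 3.16, 33.5 and 47.1 for T195. There the controls overlapped, T183 and T195 lay at least 21.3-fold and 22.4-fold below Chris, and the interaction was 4.90 ± 0.51 (0.000566). ACC oxidase, the enzyme of the last step of ethylene synthesis, gave 2.22 ± 0.28 (0.00215), with 574, 815 and 760.1 on the Chris arrays, 225, 235 and 225 for T183 and 239.8, 263 and 155 for T195. All 3 kept probe sets of the ACC oxidase cluster were called in the same direction, one of them (1.55) as Aegilops only.

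**Figure D4:**
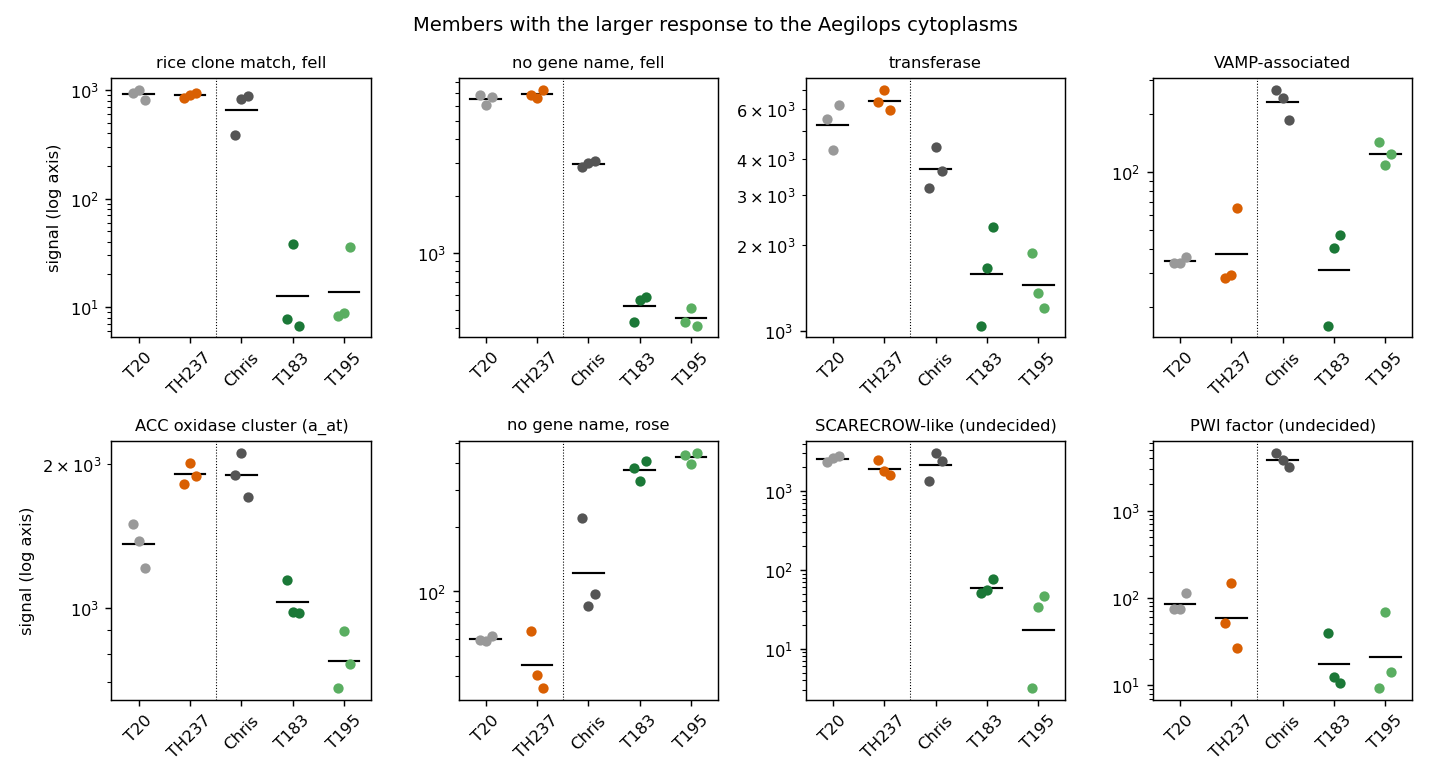
Signal (log axis, deposited intensity) of 8 members with the larger response to the Aegilops cytoplasms, one dot per array, black line at the geometric mean, dotted line between the nuclear backgrounds. T183 and T195 lie below Chris in 7 panels and above it in the panel of the member that rose, while TH237 lies within 2-fold of T20 by its mean in each. The 2 panels marked undecided have a barley-type interval that passed 2-fold.

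The 4 same-direction members were organelle-related. Both maturase probe sets, matched to the intron-splicing maturases that include the one encoded within the mitochondrial nad1 gene, rose in all alloplasmic lines and less so in TH237. The AtnMat3 probe set was dim in T20 (5.47, 43.9 and 26.0) and Chris (69.97, 21.8 and 79.5). It read 229.9, 121 and 344 on the TH237 arrays, 4284, 3469 and 4760 for T183 and 1457, 1295 and 1205 for T195, at least 2.005-fold, 40.4-fold and 12.8-fold higher than the control. The interaction was -2.51 ± 0.56 (adjusted p 0.0305), lost without any 1 of T20 arrays 2 and 3, TH237 arrays 1 and 2 or Chris array 2 (-2.56 to -2.09, adjusted p 0.0606 to 0.0771). The other maturase probe set gave -2.79 ± 0.57 (0.0211), lost without any 1 of T20 array 1, TH237 arrays 1 and 2 or Chris array 3 (-2.82 to -2.59, adjusted p 0.0501 to 0.06). With 1 array left out, from 0 to 2 of this pair were called.

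The probe sets of the organelle ribosomal protein rps12 and of an ABC transporter permease fell in all alloplasmic lines. For rps12, T20 read 24920, 27370 and 29320 and TH237 2406, 1981 and 2288, beside 22480, 19060 and 23260 on the Chris arrays, 8.87, 1.35 and 12.02 for T183 and 7084, 10620 and 9926 for T195. The 2 Aegilops lines did not agree, with TH237 between them and T183 dim, at least 212-fold below Chris. Taken against T183 the interaction was 6.27 and against T195 it was -2.36, so the value of 1.96 ± 0.26 against their mean describes neither line. The permease gave 5.10 against T183 and -2.34 against T195. Both probe sets belong to 1 cluster.

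Some plastid genes responded to both cytoplasm types without a called interaction. The first psbE probe set, for the alpha chain of cytochrome b559 in photosystem II, read 26430, 30810 and 29380 on the T20 arrays and 878, 1105 and 772 on those of TH237, and 22410, 22340 and 25450 on the Chris arrays, 369.7, 1016 and 520.3 for T183 and 583, 903 and 860.2 for T195. It fell in both effects, and the interaction was 0.13 ± 0.38 with a 95% interval of -0.70 to 0.96. The other psbE probe set also fell in both and gave 0.81 (-0.17 to 1.80), and so did chain 5 of the plastid NAD(P)H dehydrogenase, which feeds electrons back into photosynthetic transport, with 0.36 (-0.85 to 1.57). These last 2 intervals reached past 2-fold, so a difference of that size was not excluded there. The plastid maturase gene matK fell in TH237 and gave -0.07 (-0.93 to 0.78), with an Aegilops effect of -1.22 that was not called.

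Gene lists taken from the study's text were counted for the interaction, against the 2.6% called among all probe sets and a median of 0.01. The study picked these genes on the same arrays, so the counts describe them and are no independent evidence. Besides the LHCII, APX4, LSD1 and cytochrome c oxidase genes above, the list of photosystem and ATP synthase subunits held 3 called above 0 and 1 below of 6. The third called above 0 was a UV-B-repressible protein of photosystem II (1.40 ± 0.28, adjusted p 0.019), lost without any 1 of T20 array 1, TH237 array 2 or Chris array 3 (1.23 to 1.39, adjusted p 0.0507 to 0.0536). Of 9 other plastid genes 4 were above 0 and 1 below. The RNA polymerase alpha subunit of plastids gave 4.49 ± 0.55 (0.00202) at one probe set, with 100.4, 219 and 291 on the T20 arrays, 3490, 3501 and 4196 on those of TH237 and 194, 536 and 270.0 on the Chris arrays. TH237 stood above all other arrays. At another it gave 2.22 ± 0.49 (0.0307), lost without any 1 of T20 arrays 1 and 3, TH237 arrays 1 and 3 or Chris arrays 1 and 2 (1.74 to 2.27, adjusted p 0.0526 to 0.0769). There the TH237 arrays overlapped those of T20 (means 739 and 475). Every T183 and T195 array lay below Chris (means 434, 221 and 906). None of the other 7 kept probe sets of that cluster was called. The plastid ribosomal protein rpl2 was the one below 0 (-1.89 ± 0.37, 0.0176), lost without TH237 array 2 (-1.79, adjusted p 0.0526). It gave -2.94 against T183 and -0.83 against T195 (0.298), where it fell too (-1.87, 0.012). L16 of the same cluster, outside the list and chosen after its value was seen, was above 0 (1.97 ± 0.30, 0.0056).

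Of 3 mitochondrial complex I genes, 1 was called, subunit 2 of NADH dehydrogenase (1.36 ± 0.21, adjusted p 0.00626). It read 50.7, 58.6 and 65.5 on the T20 arrays and 124, 97.5 and 144 on those of TH237. T20, T183 and T195 were dim, so TH237 was at least 1.14-fold higher than T20. Chain 6 rose in both effects, by 1.88 (at least 2.17-fold, from a dim T20) and 3.03, and its interaction of -1.16 ± 0.53 was not called. Of 8 probe sets for chlorophyll synthesis and retrograde signalling 3 were called above 0, with a median of 1.74. These were 2 of HEMA1, the glutamyl-tRNA reductase that starts chlorophyll and heme synthesis (1.90 and 1.82), and 1 of FLU, its feedback inhibitor (1.67), lost without any 1 of T20 arrays 1, 2 and 3, TH237 arrays 1 and 3, Chris arrays 1 and 3, T183 array 1 or T195 arrays 1 and 2 (1.44 to 1.72, adjusted p 0.0503 to 0.104). None of the 8 was called without T20 array 1 and 2 were without Chris array 3. The first HEMA1 probe set read 2513, 3542 and 3566 on the T20 arrays and 7798, 9079 and 8530 on those of TH237, and 1200, 1397 and 3224 on the Chris arrays, where array 3 was again high. The 3 early light-induced proteins gave -1.78 to -1.64 and none was called, with negative barley-type and positive Aegilops values in all.

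Of 9 probe sets for systemic resistance and salicylic acid 6 were called above 0, with a median of 1.91, and 3 without T20 array 1 or without Chris array 3. DIR1, a lipid transfer protein of systemic signalling in Arabidopsis, stood out, with 144, 128 and 146 on the T20 arrays, 2580, 2954 and 2034 on those of TH237, 739.5, 837 and 471 on the Chris arrays, 314, 497 and 342 for T183 and 288, 447 and 543 for T195. Its interaction of 4.74 ± 0.35 (adjusted p 2.92e-05) was called under each alternative, and the other DIR1 probe set gave 3.28 ± 0.38 (0.00118) as barley-type only, at least 2.92-fold higher in TH237 with all other lines dim. FMO1, a monooxygenase needed for systemic resistance in Arabidopsis, gave 2.27 ± 0.35 (0.00576) and, at a second probe set, 2.51 ± 0.54 (0.0271), the latter lost without any 1 of T20 array 1, TH237 arrays 2 and 3 or Chris arrays 2 and 3 (2.04 to 2.44, adjusted p 0.0573 to 0.0718).

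Of 11 resistance-like and pathogenesis-related probe sets 4 were called above 0 and none below, although the median was -1.24. The 4 were a powdery mildew resistance protein (2.87 ± 0.50, adjusted p 0.0103), 2 probe sets of the resistance gene homologue Vrga1 (2.66 and 2.47) and a leucine-rich repeat protein (2.54). The Vrga1 probe set at 2.47 was dim in all lines but TH237, where it was at least 1.28-fold higher than in T20. Its interaction fell to 0.41 under an alternative setting, and its call was lost without T20 array 1 (2.29, adjusted p 0.0585). The leucine-rich repeat call was lost without any 1 of 6 arrays (2.21 to 2.50, adjusted p 0.0601 to 0.0766). These were T20 arrays 1 and 2, TH237 arrays 2 and 3 and Chris arrays 2 and 3. Of the 11, 2 were called without T20 array 1, and the powdery mildew protein had a control difference of -3.33. The list of ACD1, STP13, VEP1 and metacaspases held 4 of 5 below 0, with a median of -2.14. Lipoxygenases LOX2 and LOX3, of jasmonate synthesis, gave 1.06 to 1.80 and 0 of 5 calls. Of 8 acyl-CoA reductases 3 were below 0, the FAR pair above and one further probe set (-1.39 ± 0.27, 0.0177), lost without any 1 of T20 array 1, TH237 array 2 or Chris array 3 (-1.31 to -1.28, adjusted p 0.0506 to 0.0543), and 1 was left without Chris array 3. In that list ms2 gave -1.86 ± 0.51 (0.0703). Of 3 probe sets of POP2, a transaminase of 4-aminobutyrate, 1 was below 0 (-1.59 ± 0.36, 0.0305, dim in TH237 and at least 1.73-fold lower), lost without any 1 of T20 arrays 1 and 2, TH237 arrays 1 and 2 or Chris arrays 1, 2 and 3 (-1.61 to -1.41, adjusted p 0.0544 to 0.0824). ADC2, an arginine decarboxylase of polyamine synthesis, gave -1.59 ± 0.36 (0.0326), lost without any 1 of T20 arrays 1 and 3, TH237 arrays 1, 2 and 3, Chris arrays 1 and 3 or T195 array 1 (-1.65 to -1.33, adjusted p 0.0502 to 0.0929). The other 2 kept probe sets of the ADC2 cluster gave -0.08 and -0.38 and were not called (adjusted p 0.944 and 0.654). The B-box zinc finger probe set, similar to the CONSTANS family of light and flowering regulators, fell, with -2.98 ± 0.29 (0.000293) from 183.2, 248 and 237 on the T20 arrays to 47.0, 33.2 and 34.9 on those of TH237, where it was dim, at least 1.95-fold lower. It was also dim in Chris and T183 and was at 163, 122 and 143 for T195. Plantacyanin (0.19 ± 0.45) and polyubiquitin (-0.24 ± 0.20), a common reference gene, were not called.

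**Figure D5:**
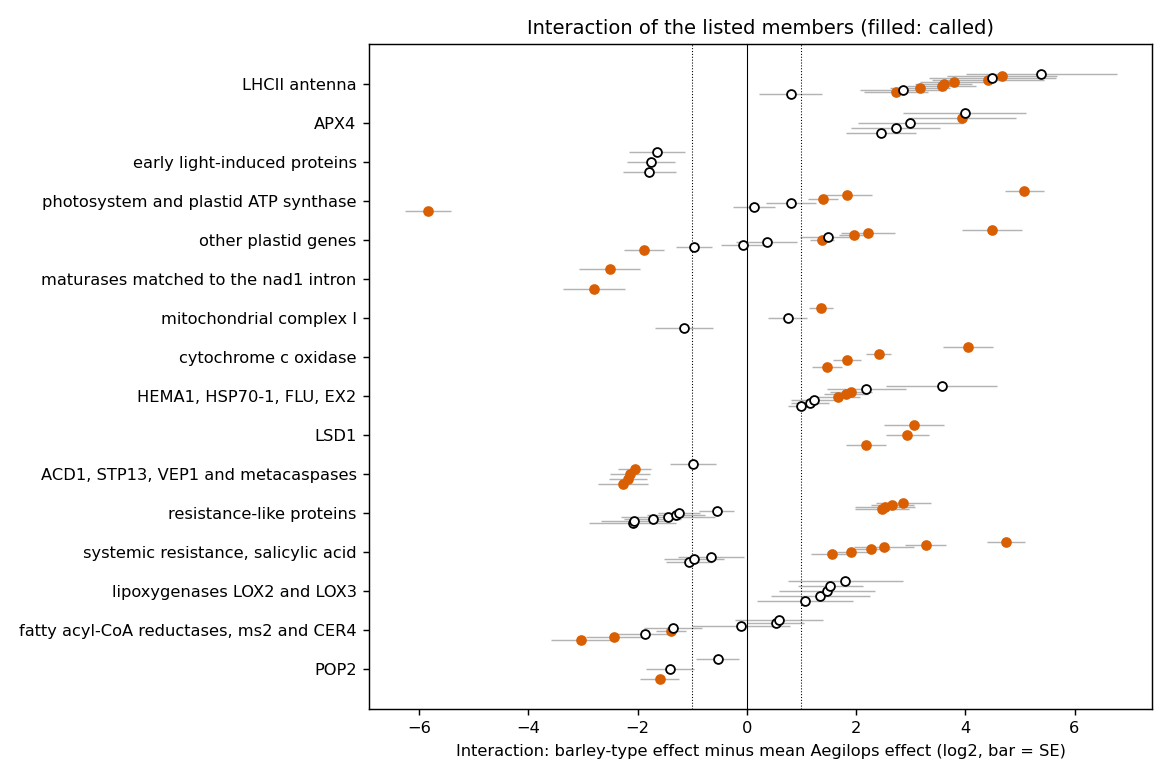
Interaction (x axis, log2, barley-type effect minus Aegilops effect) of each probe set on the 16 lists with 2 or more members, one row per list. Dots are probe sets, filled where called, bars are 1 standard error, and dotted lines mark 2-fold. LHCII, LSD1 and cytochrome c oxidase lie to the right of 0, and the metacaspase list lies to the left.

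The study's list of probe sets changed in any line was chosen on these arrays. Of its members 554 were kept, of which 198 were called above 0 and 105 below, with a median of 1.1. Of 62 placed in the chloroplast 27 were above 0 and 5 below, with medians of 1.83 for the interaction, 1.34 for the barley-type effect and -0.715 for the Aegilops effect. Of 22 placed in the mitochondrion 7 were above and 7 below. By functional class, photosynthesis held 10 above and 1 below of 18, redox 3 and 0 of 7, RNA 21 and 3 of 39, tetrapyrrole synthesis 3 and 0 of 5, glycolysis 4 and 0 of 5 and mitochondrial electron transport 5 and 0 of 8. Lipid metabolism went the other way, with 2 above and 7 below of 18, and nucleotide metabolism held 0 and 2 of 7. The protein class held 11 and 7 of 30, stress 9 and 1 of 25, transport 8 and 6 of 22, signalling 4 and 5 of 14, amino acid metabolism 3 and 4 of 17, secondary metabolism 2 and 3 of 13, hormone metabolism 2 and 1 of 10, cell wall 3 and 1 of 7, development 2 and 2 of 7 and the miscellaneous enzymes 12 and 7 of 35. Probe sets without an assigned function held 24 and 21 of 81, and those of unknown function 51 and 17 of 129.

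T183 and T195 differed from each other at 23 probe sets (0.0729%), 14 higher in T183 (0.0444%) and 9 lower (0.0285%). A difference that was not called does not show that the lines were alike, and with T183 or T195 alone the Aegilops effect was called at 39 and 80 probe sets. Of the 23, 6 were called for the interaction, among them rps12, the permease and rpl2. For ccsA, a plastid protein of cytochrome c assembly that was not called for the interaction (-0.96 ± 0.33), T183 read 8467, 9325 and 9578, T195 915, 967 and 1153 and Chris 4269, 4987 and 5434. T195 lay below Chris and T183 above it, so that their mean hid a difference of 3.16 ± 0.25 (adjusted p 0.000103). Against T183 alone ccsA gave an interaction of -2.54 (adjusted p 0.0048) and against T195 alone 0.62 (0.396).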

How the data were processed

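The study hybridised biotin-labelled cRNA, made from poly(A) RNA of 5 lines with 3 biological replicates each, to 15 Affymetrix Wheat Genome Arrays. The authors deposited 1 intensity per probe set and array, on a linear scale. Per the labels these are MAS 5.0 signals, in which each array is scaled by itself, whereas the study's methods name RMA, so differences between arrays in the spread of signals were not removed. The arrays' number limits the precision, and the replicates are separate bulked pots, so p-values measure the spread between those.

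Of 61290 probe sets 111 controls were removed, and 31555 above the 55th percentile on 3 or more arrays were kept. log2(signal + 16) of all 15 arrays was fitted in 1 model of 5 lines with limma 3.58.1 in R 4.3.3 (10 residual and 3.2 prior degrees of freedom), with no replicate block. P-values were adjusted by Benjamini and Hochberg over the kept probe sets, and a call needed an adjusted p of at most 0.05 and at least 2-fold. The model was tested on simulated data. Alternatives changed the offset, floor, filter, scaling, variance model, test, fold limit, block and Aegilops term, and left out each array. A dim line (all 3 arrays below the percentile) gives a bound, the other line's mean over that percentile.

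Genes came from the descriptions in the study's list of 560 changed probe sets and from 1273 platform symbols, and other probe sets are known by identifier only. Probe sets ending in _s_at, _x_at or _a_at can read several genes of a family. Named genes were, among called members whose arrays did not overlap, the 12 largest annotated rises and 12 falls of the barley-type only class, the other classes up to 20 by size, and up to 4 called members of each list, with list members that were not called given as values. The members and lists were chosen with earlier results of these data known. The array-based count of opposite members, and the Myb, wir1, heat shock, ACC oxidase, SCARECROW-like, L16, wheat 18S and further PWI splicing factor probe sets, were chosen after their values were seen. Primer sequences are those of the study. One further primer pair is not reported here. Sequences of array probes were not used here.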

Additional observations from a re-analysis of the deposited data

Results flagged for a closer look

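The barley-type and Aegilops effects differed at 821 probe sets by a contrast of the same limma model, which is the interaction described in the report.

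T183 and T195, which share the Chris nucleus and the Chris control, also differed from each other at 6 of the probe sets called for the interaction, by a contrast of that model. T183 lay below T195 by -8.63 (log2) at rps12, by -7.44 at the ABC transporter permease and by -1.20 at an unannotated probe set. It lay above T195 by 2.11 at rpl2 and by 3.96 at a probe set placed in the mitochondrion. At an Aegilops only member without a gene name it lay above T195 by 2.05. At these probe sets the mean Aegilops effect stands for neither line.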

How the results depend on the processing

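Counts are given in the order of the report, and the cause of a change was not tested unless stated. With 1 added in place of 16 the Aegilops only class held 9, the same-direction class 2 and the wider opposite count 1. With 64 added, opposite held 6 and its wider count 9. With signals floored at the percentile these were 5 and 10, with a 70th percentile filter 6 and 15, and with an intensity trend 9 and 14, where the Aegilops effect was called at 96. With no filter, which tests 61179 probe sets, 362 interactions and 31 Aegilops effects were called, with 134 barley-type only, 8 Aegilops only, 2 same-direction and 218 undecided members and 0 opposite by the wider count. Median centring gave 1 for that count. The Welch form of the methods' t-test called 49 interactions, 1 barley-type and 4 Aegilops effects, with 0 barley-type only, 1 Aegilops only, 0 same-direction, 48 undecided and 0 opposite members by the wider count. With the 2-fold limit applied first it called 443 barley-type and 91 Aegilops effects, with 163 barley-type only, 926 undecided and 1 opposite member by either count. With the 2-fold limit inside the limma test 27 interactions, 44 barley-type and 15 Aegilops effects were called, with 12 barley-type only, 2 Aegilops only, 13 undecided, 0 same-direction and 0 opposite members by the wider count. With no fold limit the barley-type effect was called at 1353, with 532 barley-type only and 2 opposite members. At an adjusted p of at most 0.01 there were 213 interactions, 310 barley-type and 26 Aegilops effects, with 88 barley-type only, 6 Aegilops only, 2 same-direction and 117 undecided members. With a 1.5-fold range for no response, 94 members were barley-type only and 3 Aegilops only. Under the alternatives added after seeing the data, 30 members were opposite by arrays and 42 by unadjusted p.

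With T195 alone as the Aegilops term there were 183 barley-type only, 33 Aegilops only, 5 opposite, 2 same-direction and 8 wider opposite members, and the interactions of rps12 (-2.36) and the permease (-2.34) reversed, since T195 fell less than T183. With T183 alone the wider opposite count was 0.

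Same-numbered arrays of different lines showed no common deviation by the median (30 pairs, correlations of -0.196 to 0.219, median 0.00401). Pairs with different numbers were not set beside them, so a pairing by replicate number was not settled. With a replicate block 3 members were opposite and 4 by the wider count, beside 720 interactions, 673 barley-type and 52 Aegilops effects.

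With 1 array left out, interactions ranged from 386 to 838, barley-type effects from 437 to 723 and Aegilops effects from 29 to 105. The barley-type only class ranged from 155 to 256, Aegilops only from 9 to 37, opposite from 0 to 4, same direction from 2 to 5, undecided from 210 to 600 and the wider opposite count from 0 to 7. Over the named and listed probe sets, 1551 values kept direction and side of the threshold under the other alternatives and 388 lost the call. With 1 array left out 1500 kept it and 225 lost it.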
